A study of Homo sapiens with 27 samples.

Results

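FOXA1 was silenced in 3 human breast cancer cell lines, T47D, SKBR3 and MDA-MB-453, and the question addressed here is where the response to that silencing differed between the lines. Of the 27 RNA sequencing libraries of the study, 18 enter, namely 3 libraries of siFOXA1 cells and 3 of siNS cells for each line, which form 6 groups. They were chosen by joining the deposited FOXA1 tables of the 3 lines on the gene identifier, which gives 18 read counts per gene. The siFOXA1 cells were reverse transfected with a SMARTpool of siRNAs against FOXA1, the siNS cells with a non-targeting siRNA, and RNA was collected at 48 h in every group. T47D is a luminal line that expresses estrogen receptor alpha, SKBR3 is known for amplification of ERBB2, and MDA-MB-453 is a line of apocrine type. Each cell type is represented by 1 established line, so a difference below is a difference between these lines and not between tumor subtypes. The labels call the replicates biological but do not describe the cultures, and p-values measure only the spread between these samples. Libraries carry the number of their deposited column, which is 2, 3 and 4 for T47D siNS and 1, 2 and 4 for MDA-MB-453 siNS.

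FOXA1 is a forkhead transcription factor of luminal breast epithelium that can bind its sites in closed chromatin and make them accessible to other factors. In breast cells it is known for opening sites used by steroid hormone receptors and for holding back programs of other epithelial lineages. It also recruits corepressors of the TLE family, the human relatives of fly Groucho.

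FOXA1 itself (chr14:38059189-38069245, hg19) was measured first, since it checks the labels. In T47D it had 82, 86.3 and 73.6 CPM in siFOXA1 libraries and 357, 358 and 371 CPM in siNS libraries, where CPM is the usual depth-normalised read count, here also scaled for library composition. In SKBR3 it had 82.5, 88.4 and 85 CPM in siFOXA1 and 430, 416 and 374 CPM in siNS libraries. In MDA-MB-453 it had 131, 127 and 141 CPM in siFOXA1 and 703, 734 and 795 CPM in siNS libraries. The siFOXA1 libraries lay far below the siNS libraries in every line, without overlap. The log2 fold change of siFOXA1 over siNS was -2.17 (SE 0.09) in T47D, -2.25 (SE 0.09) in SKBR3 and -2.48 (SE 0.09) in MDA-MB-453, with its standard error (SE) in parentheses. The depth of silencing was not called different between the lines (edgeR quasi-likelihood test of the joint interaction, adjusted p = 0.0899), but it was called once SKBR3 siNS library 3 was left out (adjusted p = 0.0249). Silenced MDA-MB-453 cells kept the highest FOXA1 level of the silenced lines, and its part in the differences below was not tested.

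The 18 libraries held 17419361 to 23920836 counted reads, and 18892 genes were listed in all 3 tables, of which 16138 passed the filter on low counts. SKBR3 siNS library 3 stood apart from the other libraries. Its root mean square log2 deviation from its group mean was 0.327, against 0.107 to 0.201 in the other 17 libraries, and its ribosomal protein genes summed to 145000 CPM, against 86400 and 88000 CPM in the other SKBR3 siNS libraries. The biological coefficient of variation was 0.167 within SKBR3, 0.0861 within T47D and 0.0783 within MDA-MB-453. SKBR3 log2 fold changes that changed sign or moved by at least 0.2 without this library are followed by the value without it. The 8 breast epithelial markers (KRT8, KRT18, KRT19, EPCAM, CDH1, KRT7, CLDN4 and ESRP1) were all tested and summed to between 4090 and 23100 CPM in every library, so the labelled epithelial origin was matched. Of 8 fibroblast markers 3 were tested, the collagen genes COL1A1, COL1A2 and COL3A1, which together had 43.7 to 58.9 CPM in siFOXA1 and 107 to 125 CPM in siNS libraries of T47D. They had 15.9 to 22.1 CPM in siFOXA1 and 23.2 to 34.9 CPM in siNS libraries of SKBR3, and 51.0 to 58.5 CPM in siFOXA1 and 155 to 174 CPM in siNS libraries of MDA-MB-453. Of 6 endothelial markers 2 were tested, CDH5 and VWF, which together had at most 1.29 CPM in T47D and MDA-MB-453 libraries and 9.76 to 13.3 CPM in SKBR3 libraries. Of 7 immune markers only CD14 was tested, at no more than 1.67 CPM in any library. Their part in the results was not tested. In bulk RNA, fewer cells of a kind and less RNA per cell cannot be told apart.

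Only the difference of the siFOXA1 effect between lines was tested, and no test was made within a line. Within a line the log2 fold change is given with its SE, or the library values are given. Whether the 3 siFOXA1 and 3 siNS libraries overlapped is stated for part of the genes. Where it is not stated, the libraries may or may not overlap. The siFOXA1 effect differed between lines for 5448 of 16138 genes, or 33.8% (edgeR, Benjamini-Hochberg adjusted p under 0.05). Without SKBR3 siNS library 3 there were 7287 such genes of 16540 tested, or 44.1%, and 5328 genes were called both times. The genes nearest the threshold were CHD8 at an adjusted p of 0.04995 on the called side and MPHOSPH8 at 0.05004 on the other (both edgeR). Of the 11514 genes with a group mean of at least 1 CPM in the higher arm of every line, 4689 (40.7%) were called, and a gene can reach this limit through the arm in which it is high.

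By pairs, the effect was higher in T47D than in SKBR3 for 2093 genes (13.0%) and lower for 1807 (11.2%). It was higher in T47D than in MDA-MB-453 for 1231 genes (7.63%) and lower for 1369 (8.48%). Between SKBR3 and MDA-MB-453 it was higher in SKBR3 for 1578 genes (9.78%) and lower for 1920 (11.9%). The count of 2600 between T47D and MDA-MB-453 became 4416 without SKBR3 siNS library 3 and 4140 in a fit of only the 12 libraries of these lines. Across these 11514 genes, the log2 fold changes correlated with a Pearson r of 0.558 between T47D and MDA-MB-453, 0.379 between T47D and SKBR3 and 0.371 between SKBR3 and MDA-MB-453. The sign was the same for 71.7%, 60.3% and 60.5% of genes in those pairs. These are descriptions across genes, which are not independent, and without SKBR3 siNS library 3 the r values were 0.557, 0.392 and 0.366. The median log2 fold change over all tested genes was close to 0 in each line, at 0.02 in T47D, -0.02 in SKBR3 and 0.01 in MDA-MB-453.

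**Figure D1:**
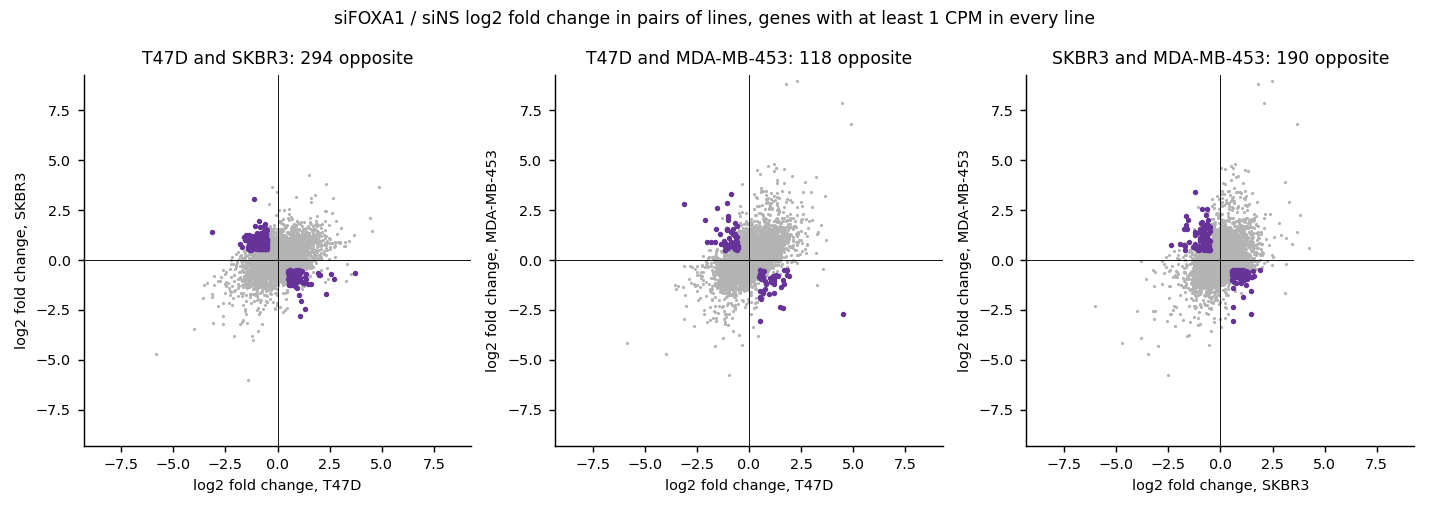
Log2 fold change (siFOXA1 over siNS) of every gene with a group mean of at least 1 CPM in the higher arm of every line, for T47D against SKBR3, T47D against MDA-MB-453 and SKBR3 against MDA-MB-453. Grey points are genes, and purple points are genes of opposite response. The cloud of T47D against MDA-MB-453 (r = 0.558) is the most elongated of the 3, and the lower right and upper left corners of T47D against SKBR3 hold 85 and 209 purple points.

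A gene was counted as having an opposite response when the difference between lines was called, its log2 fold change was at least 0.5 in a line and at most -0.5 in another, and siFOXA1 and siNS libraries did not overlap in either. There were 637 such genes. Of all tested genes, 235 (1.46%) were lower after silencing in T47D and higher in SKBR3, and 133 (0.824%) were higher in T47D and lower in SKBR3. SKBR3 and MDA-MB-453 gave 153 genes (0.948%) that were lower in SKBR3 and higher in MDA-MB-453, and 111 (0.688%) of the reverse kind. T47D and MDA-MB-453 gave 95 genes (0.589%) that were lower in T47D and higher in MDA-MB-453, and 84 (0.521%) of the reverse kind. Without SKBR3 siNS library 3, the same classes still held 211 of the 235, 102 of the 133, 119 of the 153, 103 of the 111, 93 of the 95 and 79 of the 84 genes. SKBR3 was the line that stood against both others most often, with 65 genes higher in SKBR3 and lower in both others and 46 genes of the reverse kind. MDA-MB-453 stood so for 26 and 13 genes, and T47D for 9 and 17. These counts of a line against both others used all libraries and were not repeated without SKBR3 siNS library 3.

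The genes described next are those in which the smaller of the opposed changes was largest for each kind, so their fold changes and differences between lines were used to choose them and are a description. PKP1 (chr1:201252580-201302121, hg19), which encodes the desmosomal plaque protein plakophilin 1, had 0.260, 0.441 and 0.135 CPM in siFOXA1 and 2.20, 2.72 and 2.56 CPM in siNS libraries of T47D. It had 12.2, 9.39 and 10.1 CPM in siFOXA1 and 3.07, 5.40 and 3.65 CPM in siNS libraries of SKBR3, and 3.47, 1.63 and 2.25 CPM in siFOXA1 and 0.249, 0.276 and 0.568 CPM in siNS libraries of MDA-MB-453. The libraries did not overlap in any line, and siFOXA1 libraries were the lower ones in T47D and the higher ones in SKBR3 and MDA-MB-453. The log2 fold change was -3.13 (SE 0.40) in T47D, 1.38 (SE 0.27) in SKBR3 and 2.79 (SE 0.39) in MDA-MB-453, and T47D minus MDA-MB-453 was -5.92 (SE 0.56, edgeR adjusted p = 2.3e-07).

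IGFBP3 (chr7:45951949-45961473, hg19), an insulin-like growth factor binding protein, had 23.8, 18.3 and 21.8 CPM in siFOXA1 and 99.2, 165 and 152 CPM in siNS libraries of MDA-MB-453. In SKBR3 it had 4.82, 4.17 and 4.56 CPM in siFOXA1 and 1.69, 1.68 and 1.5 CPM in siNS libraries, and in T47D 1.08, 1.63 and 0.943 CPM in siFOXA1 and 0, 0.148 and 0 CPM in siNS libraries. Silenced cells were thus the lower ones in MDA-MB-453, where the gene is most abundant, and the higher ones in the other lines, with no overlap. The log2 fold change was -2.70 (SE 0.18) in MDA-MB-453 and 1.47 (SE 0.26) in SKBR3. In T47D it rested on 83 reads in siFOXA1 and 3 reads in siNS libraries, a ratio of 25.5 with an exact 95% counting interval of 8.44 to 126. SKBR3 minus MDA-MB-453 was 4.17 (SE 0.31, edgeR adjusted p = 9.64e-09).

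KIAA1324 (chr1:109656301-109749401, hg19), known as an estrogen-induced gene, had 173, 179 and 159 CPM in siFOXA1 and 59, 64.2 and 59.9 CPM in siNS libraries of T47D. The order was reversed in SKBR3, with 34.1, 43.3 and 38.4 CPM in siFOXA1 and 87.8, 88.1 and 87 CPM in siNS libraries, and in MDA-MB-453, with 15.6, 12.1 and 14.9 CPM in siFOXA1 and 63.7, 81.7 and 69.8 CPM in siNS libraries. Its log2 fold change was 1.48 (SE 0.11) in T47D, -1.18 (SE 0.11) in SKBR3 and -2.33 (SE 0.12) in MDA-MB-453, and all 3 pairs of lines differed (edgeR adjusted p = 4.21e-10, 7.05e-12 and 1.77e-05 for T47D minus SKBR3, T47D minus MDA-MB-453 and SKBR3 minus MDA-MB-453). DLL4 (chr15:41221538-41231237, hg19), a Notch ligand, shared this order at low levels, with log2 fold changes of 1.61 (SE 0.36), -1.21 (SE 0.30) and -2.40 (SE 0.30) in T47D, SKBR3 and MDA-MB-453. T47D minus MDA-MB-453 was 4.01 (SE 0.47) for DLL4 (edgeR adjusted p = 3.75e-06), while SKBR3 and MDA-MB-453 were not called different (adjusted p = 0.0502), but were without SKBR3 siNS library 3 (adjusted p = 0.0308).

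NDRG1 (chr8:134249414-134314265, hg19), a stress and hypoxia responsive gene, had 107, 126 and 115 CPM in siFOXA1 and 356, 377 and 363 CPM in siNS libraries of SKBR3. In MDA-MB-453 it had 34.5, 33.4 and 36 CPM in siFOXA1 and 11.4, 7.92 and 11.3 CPM in siNS libraries. In T47D it had 25.8, 20.3 and 23.7 CPM in siFOXA1 and 32.9, 26.7 and 31.2 CPM in siNS libraries. Silenced cells had slightly less in T47D, much less in SKBR3 and more in MDA-MB-453, with no overlap in any line. SKBR3 minus MDA-MB-453 was -3.42 (SE 0.17, edgeR adjusted p = 3.78e-11). GRIK4 (chr11:120382468-120859613, hg19), a kainate receptor subunit, had log2 fold changes of -2.11 (SE 0.15) in T47D, -1.57 (SE 0.30) in SKBR3 and 1.99 (SE 0.24) in MDA-MB-453. EMP1 (chr12:13349650-13369708, hg19), an epithelial membrane protein, had log2 fold changes of -1.58 (SE 0.14), -0.96 (SE 0.11) and 1.57 (SE 0.25) in T47D, SKBR3 and MDA-MB-453. KLHDC7A (chr1:18807424-18812478, hg19) had log2 fold changes of -1.01 (SE 0.24), -1.63 (SE 0.37, -1.38 without siNS library 3) and 2.18 (SE 0.52) in the same lines. Its MDA-MB-453 siNS libraries had 0.291, 0.46 and 0 CPM, so the size there rested on few reads. Those libraries were also low for EMP1, at 0.706, 0.368 and 0.516 CPM, and for GRIK4, at 0.789, 0.875 and 0.413 CPM. GRIK4 had 0.294, 0.499 and 0.679 CPM in SKBR3 siFOXA1 libraries. These 4 genes share 1 pattern, lower in silenced T47D and SKBR3 cells and higher in silenced MDA-MB-453 cells, and T47D and SKBR3 were not called different for GRIK4 (edgeR adjusted p = 0.306) or KLHDC7A (adjusted p = 0.335).

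TUBB2A (chr6:3153903-3157760, hg19), a beta tubulin isotype, had 46.1, 49 and 51.4 CPM in siFOXA1 and 10.4, 9.04 and 9.49 CPM in siNS libraries of T47D, against 1.70, 2.18 and 2.67 CPM in siFOXA1 and 6.88, 6.51 and 8.20 CPM in siNS libraries of SKBR3. In MDA-MB-453 the 3 siFOXA1 libraries overlapped the siNS libraries, with a log2 fold change of 0.26 (SE 0.19). T47D minus SKBR3 was 4.05 (SE 0.23, edgeR adjusted p = 2.92e-10). TUBB2A has a near-identical neighbor, TUBB2B, so reads of this gene may have been shared or dropped in counting. C3 (chr19:6677715-6730573, hg19), the central complement component, had log2 fold changes of 1.30 (SE 0.23) in T47D, -2.46 (SE 0.39) in SKBR3 and 0.25 (SE 0.28) in MDA-MB-453, where libraries overlapped. COL9A3 (chr20:61447596-61472511, hg19), a collagen IX chain, was set apart by SKBR3, with log2 fold changes of -1.36 (SE 0.23), 1.23 (SE 0.29) and -1.26 (SE 0.22) in T47D, SKBR3 and MDA-MB-453. CCDC88B (chr11:64107695-64125006, hg19) had log2 fold changes of -0.25 (SE 0.25) in T47D with overlap, 1.45 (SE 0.26) in SKBR3 and -1.54 (SE 0.41) in MDA-MB-453. Each of the 13 genes was still called between lines without SKBR3 siNS library 3 (edgeR), and CCDC88B moved most in SKBR3, to a log2 fold change of 1.79.

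**Figure D2:**
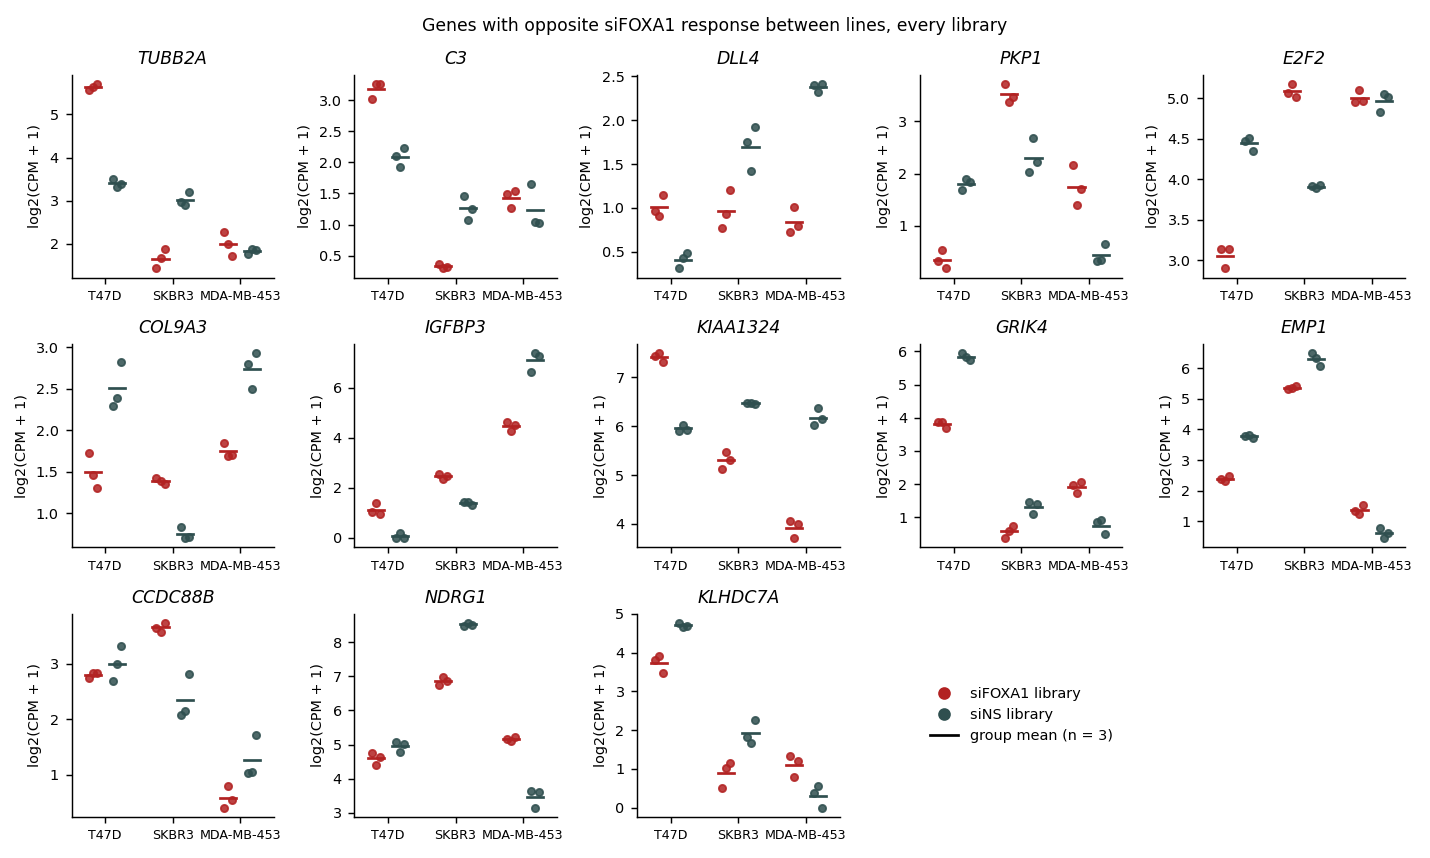
Expression of the 13 genes with opposite siFOXA1 response in every library, as log2(CPM + 1), for T47D, SKBR3 and MDA-MB-453. Red points are siFOXA1 libraries, dark points siNS libraries, and bars group means (n = 3). Red lies above dark in T47D and below it in SKBR3 for TUBB2A, C3, DLL4 and KIAA1324, and the reverse holds for PKP1, E2F2 and COL9A3.

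Genes of cell division responded in opposite directions in T47D and SKBR3. All 30 genes of a mitosis list differed between lines, and so did 31 of 32 genes of a DNA replication list, where 33.8% of all tested genes did. These and all later gene lists were chosen with earlier results of these data known, so the share of a list is a description. The median log2 fold change of the mitosis genes was -0.72 in T47D, 1.03 in SKBR3 and -0.33 in MDA-MB-453. For DNA replication it was -0.60, 0.83 and -0.24. In SKBR3 all 30 mitosis and all 32 replication genes lay above 0, in T47D 30 of 30 and 29 of 32 lay below 0, and in MDA-MB-453 27 of 30 and 26 of 32. The opposite class of T47D and SKBR3 held 22 mitosis and 16 replication genes in the direction of lower in T47D and higher in SKBR3, a class with 1.46% of all tested genes. Without SKBR3 siNS library 3 the SKBR3 medians were 0.95 and 0.83, and the counts above 0 were again 30 and 32.

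CDK1 (chr10:62538089-62554610, hg19), the kinase that drives entry into mitosis, had 88.4, 103 and 110 CPM in siFOXA1 and 191, 201 and 181 CPM in siNS libraries of T47D. It had 186, 175 and 159 CPM in siFOXA1 and 76.3, 77.9 and 82.4 CPM in siNS libraries of SKBR3, and 47.9, 48.3 and 41.8 CPM in siFOXA1 and 55.7, 81.8 and 64 CPM in siNS libraries of MDA-MB-453. Silenced cells were lower in T47D and MDA-MB-453 and higher in SKBR3, with no overlap in any line. T47D minus SKBR3 was -2.07 (SE 0.17, edgeR adjusted p = 3.16e-08) and SKBR3 minus MDA-MB-453 was 1.68 (SE 0.17, adjusted p = 3.82e-07), while T47D and MDA-MB-453 were not called different (adjusted p = 0.133), but were without SKBR3 siNS library 3 (adjusted p = 0.0443). FOXM1, a forkhead activator of mitotic genes, had log2 fold changes of -0.78 (SE 0.11), 1.03 (SE 0.11) and -0.61 (SE 0.11) in T47D, SKBR3 and MDA-MB-453. AURKA, a kinase of the mitotic spindle pole, had log2 fold changes of -0.82 (SE 0.08), 0.61 (SE 0.08) and -0.51 (SE 0.09), and CCNA2, the S and G2 phase cyclin A2, had log2 fold changes of -0.65 (SE 0.12), 1.38 (SE 0.12) and -0.26 (SE 0.12). SKBR3 differed from both other lines in each of these 4 genes, and silenced and control MDA-MB-453 libraries overlapped for CCNA2.

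Among the replication genes, E2F2 (chr1:23832922-23857712, hg19), an activator of S phase genes, had 7.76, 6.44 and 7.82 CPM in siFOXA1 and 21.3, 21.8 and 19.3 CPM in siNS libraries of T47D, and 32.6, 35.3 and 31.4 CPM in siFOXA1 and 14.1, 13.8 and 14.2 CPM in siNS libraries of SKBR3. In MDA-MB-453 its siFOXA1 and siNS libraries overlapped, at 30 to 33.3 CPM in siFOXA1 and 27.5 to 32.2 CPM in siNS libraries. E2F2 differed in all 3 pairs (edgeR adjusted p = 2.21e-10 for T47D minus SKBR3, 2.31e-07 for T47D minus MDA-MB-453 and 3.65e-06 for SKBR3 minus MDA-MB-453). MCM10, a factor of the replication start, had log2 fold changes of -0.38 (SE 0.14), 1.70 (SE 0.15) and -0.44 (SE 0.15) in T47D, SKBR3 and MDA-MB-453. RRM2, the small subunit of ribonucleotide reductase, had log2 fold changes of -0.60 (SE 0.12), 1.25 (SE 0.12) and -0.22 (SE 0.12), and CDC6, which loads the replicative helicase, had log2 fold changes of -0.76 (SE 0.10), 0.83 (SE 0.10) and -0.40 (SE 0.11). E2F7, a repressor of E2F targets that stands in neither list, was higher in silenced SKBR3 cells alone and is described with the genes restricted to that line.

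The spread of the siNS groups bears on the MDA-MB-453 values. The mean log2(CPM + 1) of the mitosis genes was 5.89, 6.03 and 6.0 in siFOXA1 and 6.73, 6.73 and 6.59 in siNS libraries of T47D. It was 6.67, 6.63 and 6.56 in siFOXA1 and 5.66, 5.61 and 5.50 in siNS libraries of SKBR3, and 5.49, 5.64 and 5.59 in siFOXA1 and 5.69, 6.15 and 5.84 in siNS libraries of MDA-MB-453. The groups did not overlap in any line, but MDA-MB-453 siNS library 2 lay well above the other MDA-MB-453 siNS libraries. Silenced SKBR3 cells reached the level of T47D siNS cells, and silenced T47D cells lay below it. For the DNA replication genes the groups did not overlap in T47D or SKBR3 but overlapped in MDA-MB-453, where siNS library 1 lay among the siFOXA1 libraries at 5.13.

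Promoter sequence was looked at for the mitosis genes because their members moved together. Windows of 250 bases before to 50 bases after the start of a gene were taken from RefSeq (GRCh38.p14), and 10990 tested genes had such a window. The CHR element TTTGAA, a cell cycle motif, was searched on both strands and was present in the windows of 17 of 24 mitosis genes (70.8%), 1 of 26 replication genes (3.85%) and 13.8% of all 10990 genes. The CCAAT box, CCAAT, was present in 21 of 24 mitosis genes (87.5%), 17 of 26 replication genes (65.4%) and 43.2% of all genes. A match is a description of the letters and not a measured site. The windows of CDK1 (chr10:60778228-60778527, plus strand) and TOP2A (chr17:40417847-40418146, minus strand) are shown 5′ to 3′ as those of the lowest interaction p among mitosis genes with the element, and capitals mark TTTGAA or its reverse complement, 3 times in CDK1 and 2 times in TOP2A.
CDK1: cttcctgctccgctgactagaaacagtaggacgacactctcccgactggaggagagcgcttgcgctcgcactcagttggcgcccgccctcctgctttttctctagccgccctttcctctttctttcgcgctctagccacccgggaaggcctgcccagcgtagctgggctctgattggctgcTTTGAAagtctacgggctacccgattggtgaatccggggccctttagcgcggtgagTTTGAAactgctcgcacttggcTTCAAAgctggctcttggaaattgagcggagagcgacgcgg
TOP2A: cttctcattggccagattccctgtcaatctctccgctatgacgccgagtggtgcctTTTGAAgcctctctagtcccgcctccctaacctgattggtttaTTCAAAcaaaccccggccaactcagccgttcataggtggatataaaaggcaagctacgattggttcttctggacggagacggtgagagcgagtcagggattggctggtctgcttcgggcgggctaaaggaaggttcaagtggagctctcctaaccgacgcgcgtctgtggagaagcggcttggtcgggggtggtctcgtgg
TOP2A, the DNA topoisomerase of dividing cells, averaged 272 CPM in siFOXA1 and 486 CPM in siNS libraries of T47D, 737 CPM in siFOXA1 and 231 CPM in siNS libraries of SKBR3, and 78.5 CPM in siFOXA1 and 93.5 CPM in siNS libraries of MDA-MB-453. Both genes thus carry the element and both were lower in silenced T47D and higher in silenced SKBR3 cells, and whether the element bears on this was not tested.

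**Figure D3:**
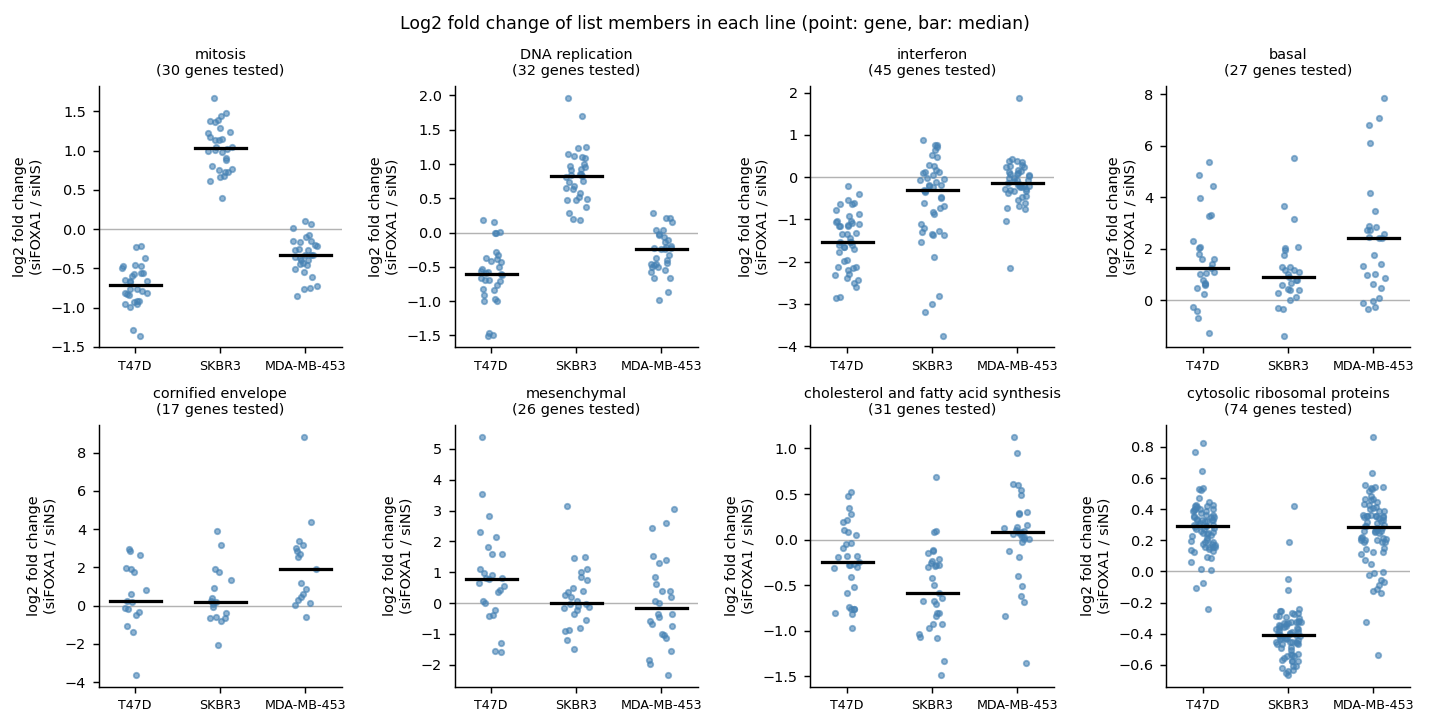
Log2 fold change (siFOXA1 over siNS) of the tested members of 8 gene lists in T47D, SKBR3 and MDA-MB-453. Points are genes and bars list medians. Nearly all mitosis and DNA replication genes lie below 0 in T47D and all lie above 0 in SKBR3 (mitosis medians -0.72 and 1.03), the interferon genes lie below 0 in T47D (median -1.53), and 72 of 74 ribosomal protein genes lie below 0 in SKBR3 (median -0.41, or -0.12 without SKBR3 siNS library 3).

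Interferon-stimulated genes were lower after silencing in T47D, and this differed from the other lines. Of 45 tested genes 36 (80%) differed between lines, against 33.8% of all genes, and 36 did so without SKBR3 siNS library 3, against 44.1%. The median log2 fold change was -1.53 in T47D, with all 45 genes below 0, against -0.31 in SKBR3 and -0.13 in MDA-MB-453, with 31 and 28 genes below 0. T47D was lower than MDA-MB-453 for 33 of the 45 genes (8.48% of all genes) and lower than SKBR3 for 15 (11.2% of all genes). The starting levels differed widely. The 45 genes summed to 2690 to 5290 CPM in siFOXA1 and 8530 to 17700 CPM in siNS libraries of T47D, 557 to 582 CPM in siFOXA1 and 527 to 571 CPM in siNS libraries of SKBR3, and 15700 to 19000 CPM in siFOXA1 and 19000 to 21600 CPM in siNS libraries of MDA-MB-453. SKBR3 libraries were thus low in both arms, and MDA-MB-453 libraries high in both. Within T47D the libraries of a group also varied, with siFOXA1 library 2 and siNS library 3 the lowest of their groups.

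IFIH1 (chr2:163123589-163175213, hg19), a sensor of double-stranded RNA, had 91, 51.7 and 80 CPM in siFOXA1 and 210, 124 and 267 CPM in siNS libraries of T47D. In SKBR3 it had 32.4, 32.7 and 32.8 CPM in siFOXA1 and 21.5, 22 and 18.7 CPM in siNS libraries, and in MDA-MB-453 585, 607 and 593 CPM in siFOXA1 and 748, 592 and 718 CPM in siNS libraries. Silenced cells were lower in T47D and higher in SKBR3 without overlap, and overlapped control cells in MDA-MB-453. T47D minus SKBR3 was -2.08 (SE 0.29, edgeR adjusted p = 2.4e-05) and T47D minus MDA-MB-453 -1.23 (SE 0.28, adjusted p = 0.00388). LGALS3BP, a secreted galectin-binding glycoprotein, had log2 fold changes of -1.97 (SE 0.25) in T47D, 0.28 (SE 0.24, 0.52 without siNS library 3) in SKBR3 and -0.32 (SE 0.24) in MDA-MB-453, with overlap in the last 2. In SKBR3 this overlap came from siNS library 3 alone, at 196 CPM against 127 and 122 CPM in siNS libraries 1 and 2. OAS3, a synthase of the RNase L activator, had 358, 164 and 221 CPM in siFOXA1 and 1580, 974 and 1950 CPM in siNS libraries of T47D, and T47D minus MDA-MB-453 was -2.15 (SE 0.34, edgeR adjusted p = 0.000153). In SKBR3 OAS3 stayed at or below 1.57 CPM in every library. DDX60, a helicase of antiviral defense, had a log2 fold change of -1.97 (SE 0.23) in T47D and 0.07 (SE 0.21) in MDA-MB-453, and 1 read in siFOXA1 against 10 reads in siNS libraries of SKBR3, a ratio of 0.0993 with an exact 95% counting interval of 0.00229 to 0.698. IFI6, an interferon-induced mitochondrial protein, had 372, 153 and 364 CPM in siFOXA1 and 1330, 805 and 1710 CPM in siNS libraries of T47D and belonged to the genes restricted to that line.

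The interferon-stimulated response element core GAAANNGAAA was searched in the same promoter windows on both strands. It was present in 24 of 34 interferon genes with a window (70.6%) and in 3.95% of all 10990 genes. The windows of IFIH1 (chr2:162318635-162318934, minus strand) and LGALS3BP (chr17:78979874-78980173, minus strand) are shown as those of the lowest interaction p with the motif, and capitals mark the motif or its reverse complement (overlapping matches run together in IFIH1).
IFIH1: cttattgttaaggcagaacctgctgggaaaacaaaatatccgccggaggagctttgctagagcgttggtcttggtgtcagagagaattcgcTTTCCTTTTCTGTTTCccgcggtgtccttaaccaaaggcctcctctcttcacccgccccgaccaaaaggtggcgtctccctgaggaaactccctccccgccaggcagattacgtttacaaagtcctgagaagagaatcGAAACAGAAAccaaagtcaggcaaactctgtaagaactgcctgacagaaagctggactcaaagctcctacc
LGALS3BP: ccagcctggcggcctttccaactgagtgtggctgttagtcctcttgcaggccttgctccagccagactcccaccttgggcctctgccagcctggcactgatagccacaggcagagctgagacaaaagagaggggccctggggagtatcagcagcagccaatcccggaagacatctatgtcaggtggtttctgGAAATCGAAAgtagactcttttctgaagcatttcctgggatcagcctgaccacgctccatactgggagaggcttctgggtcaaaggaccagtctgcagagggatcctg
A forkhead motif, TGTTTNC, was present in 9 of the 34 interferon genes (26.5%), 3 of 24 mitosis genes (12.5%), 4 of 17 genes of the basal list described below (23.5%) and 17.4% of all genes. It was in none of the 9 opposite genes named above that had a window. No match says only that these letters are absent from this window, and FOXA1 is known to act largely at distant enhancers.

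Of 14 antigen presentation genes 6 (42.9%) were called between lines, against 33.8% of all genes, and 8 without SKBR3 siNS library 3, against 44.1%. Their median log2 fold change was -0.79 in T47D, with 14 of 14 below 0, -0.29 in SKBR3 and -0.41 in MDA-MB-453. B2M, the light chain of MHC class I, had 413, 349 and 476 CPM in siFOXA1 and 863, 588 and 952 CPM in siNS libraries of T47D, and 347, 382 and 382 CPM in siFOXA1 and 265, 252 and 341 CPM in siNS libraries of SKBR3. T47D libraries were lower and SKBR3 libraries higher after silencing, without overlap, and T47D minus SKBR3 was -1.33 (SE 0.24, edgeR adjusted p = 0.000302). TAP1, a peptide transporter, had log2 fold changes of -1.14 (SE 0.17), 0.34 (SE 0.20) and -0.49 (SE 0.17) in T47D, SKBR3 and MDA-MB-453, with overlap in SKBR3. PSMB9, an immunoproteasome subunit, had log2 fold changes of -2.15 (SE 0.27) in T47D and -0.99 (SE 0.26) in MDA-MB-453, while in SKBR3 it did not exceed 0.499 CPM. TAPBP, a chaperone of peptide loading, ran otherwise, with log2 fold changes of -0.19 (SE 0.10) and overlap in T47D, -0.43 (SE 0.10) in SKBR3 and 0.33 (SE 0.10) in MDA-MB-453.

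**Figure D4:**
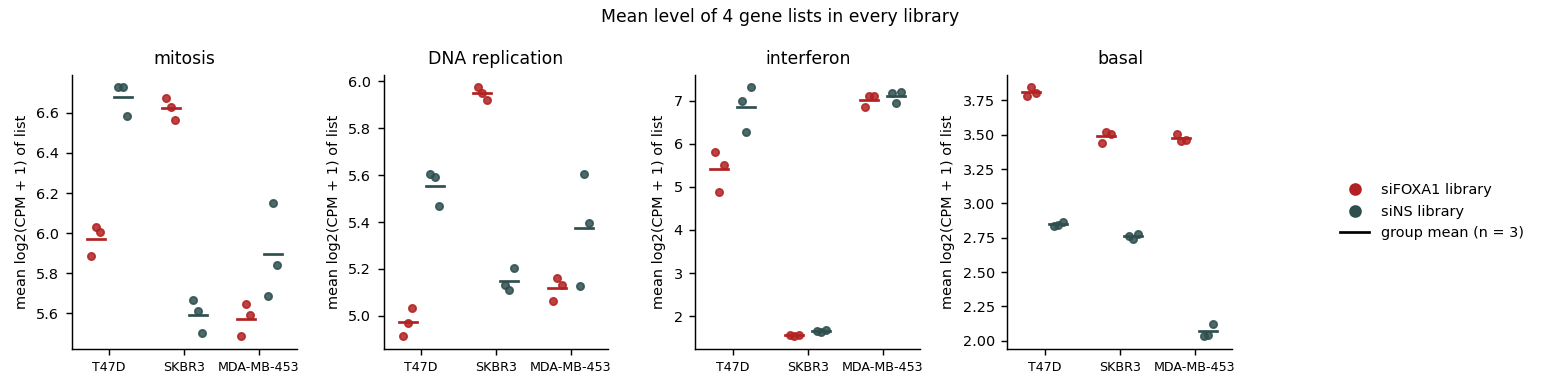
Mean log2(CPM + 1) over the genes of the mitosis, DNA replication, interferon and basal lists in every library of T47D, SKBR3 and MDA-MB-453. Red points are siFOXA1 libraries, dark points siNS libraries, and bars group means (n = 3). Mitosis genes are below siNS in T47D (5.89 to 6.03 against 6.59 to 6.73) and above it in SKBR3 (6.56 to 6.67 against 5.50 to 5.66), interferon genes are far lower in SKBR3 than in the other lines, and basal genes are above siNS in every line.

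A list of lineage and forkhead factors held FOXA1 itself, epithelial transcription factors, steroid receptors, TLE corepressors and ERBB receptors. Of its 19 tested genes 14 (73.7%) differed between lines, against 33.8% of all genes. GATA3, a luminal factor that binds beside FOXA1, had 549, 534 and 577 CPM in siFOXA1 and 970, 1110 and 1080 CPM in siNS libraries of MDA-MB-453, with log2 fold changes of 0.26 (SE 0.07), -0.25 (SE 0.07) and -0.93 (SE 0.07) in T47D, SKBR3 and MDA-MB-453 and a called difference in each pair. The receptor ESR1 averaged 147 CPM in siFOXA1 and 123 CPM in siNS libraries of T47D and stayed at or below 2.00 CPM in every other library, and its effect was not called different (edgeR adjusted p = 0.571). ESR2 (adjusted p = 0.615) and ERBB4 (adjusted p = 0.916) were not called either.

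ERBB2, the receptor amplified in SKBR3, averaged 6280 CPM in siFOXA1 and 7870 CPM in siNS libraries of SKBR3, 249 CPM in siFOXA1 and 157 CPM in siNS libraries of T47D, and 1370 CPM in siFOXA1 and 1020 CPM in siNS libraries of MDA-MB-453. Its log2 fold change was -0.33 (SE 0.07) in SKBR3, 0.66 (SE 0.07) in T47D and 0.42 (SE 0.07) in MDA-MB-453, with no overlap in any line, and SKBR3 differed from both other lines (edgeR adjusted p = 3.5e-07 against T47D and 9.6e-06 against MDA-MB-453). Its partner ERBB3 was set apart by MDA-MB-453, with log2 fold changes of -0.27 (SE 0.09), -0.24 (SE 0.09) and 0.45 (SE 0.09) in T47D, SKBR3 and MDA-MB-453. EGFR was higher in silenced cells of each line, with log2 fold changes of 1.42 (SE 0.19), 0.81 (SE 0.17, 0.56 without siNS library 3) and 2.43 (SE 0.23) in T47D, SKBR3 and MDA-MB-453, and SKBR3 minus MDA-MB-453 was -1.62 (SE 0.29, edgeR adjusted p = 0.00038).

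The TLE corepressors stand in the same list. TLE1 had log2 fold changes of -0.73 (SE 0.08) in T47D, 0.21 (SE 0.08) in SKBR3 and -0.05 (SE 0.08) in MDA-MB-453 with overlap there. TLE3, the corepressor silenced in other libraries of the study, had 86, 80.7 and 90.1 CPM in siFOXA1 and 136, 151 and 158 CPM in siNS libraries of MDA-MB-453, and log2 fold changes of 0.24 (SE 0.08), 0.07 (SE 0.08) and -0.79 (SE 0.08) in T47D, SKBR3 and MDA-MB-453. MDA-MB-453 differed from T47D (edgeR adjusted p = 2.09e-06) and from SKBR3 (adjusted p = 1.5e-05) for TLE3, and T47D and SKBR3 were not called different (adjusted p = 0.31). TLE2 was called between lines at an adjusted p of 0.0189 (edgeR) and lost this when MDA-MB-453 siFOXA1 library 3 or siNS library 2 was left out. AES, a short member of the family, was not called (adjusted p = 0.0739), but was without SKBR3 siNS library 3 (adjusted p = 0.000128). SPDEF, an Ets factor of luminal cells, was lower in silenced cells of every line, with log2 fold changes of -1.90 (SE 0.13), -1.20 (SE 0.13, -0.95 without siNS library 3) and -1.19 (SE 0.13) in T47D, SKBR3 and MDA-MB-453, and more so in T47D (edgeR adjusted p = 0.00655 against SKBR3). TFAP2C had log2 fold changes of -0.61 (SE 0.08), 0.45 (SE 0.08) and -0.34 (SE 0.09), TFAP2B -0.13 (SE 0.12), 1.04 (SE 0.10) and -0.08 (SE 0.09), and TFAP2A 0.57 (SE 0.07), -0.07 (SE 0.07) and 0.83 (SE 0.07), all AP-2 factors. SKBR3 was apart from both other lines for each of these 3. GRHL2 and GRHL1, grainyhead factors of epithelia, had opposite orders, with log2 fold changes of 0.56 (SE 0.09), -0.38 (SE 0.09) and 0.56 (SE 0.09) for GRHL2 and -0.58 (SE 0.11), 0.19 (SE 0.10) and -0.24 (SE 0.10) for GRHL1. FOXA2, FOXA3, TLE4 and PGR were listed in at least 1 table and were not tested.

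Of the luminal list 23 of 31 genes (74.2%) differed between lines, of the androgen and apocrine list 18 of 20 (90.0%) and of the estrogen response list 16 of 22 (72.7%), against 33.8% of all genes. The median log2 fold changes in T47D, SKBR3 and MDA-MB-453 were -0.13, -0.12 and 0.23 for luminal genes and -0.15, -0.53 and 0.34 for androgen and apocrine genes, where 12 of the 20 lay below 0 in SKBR3 and 13 of the 20 above 0 in MDA-MB-453. For estrogen response genes they were 0.13, -0.13 and 0.02. PIP, a secretory protein of apocrine cells, had 2.45, 2.41 and 2.08 CPM in siFOXA1 and 15.2, 14.7 and 15.1 CPM in siNS libraries of MDA-MB-453, against 421, 417 and 503 CPM in siFOXA1 and 445, 395 and 413 CPM in siNS libraries of T47D, where the libraries overlapped. In SKBR3 it was also lower after silencing but at low levels, with 0.47, 0.227 and 0.146 CPM in siFOXA1 and 1.38, 1.26 and 1.55 CPM in siNS libraries. CLDN8, a tight junction claudin, had log2 fold changes of 0.56 (SE 0.23), -1.24 (SE 0.31, -1.57 without siNS library 3) and 3.43 (SE 0.29) in T47D, SKBR3 and MDA-MB-453, and CRAT, a carnitine acetyltransferase, -0.57 (SE 0.11), 1.29 (SE 0.11, 1.5 without siNS library 3) and -0.12 (SE 0.11). MYB, a proto-oncogene of luminal cells, had log2 fold changes of -1.20 (SE 0.14), 0.02 (SE 0.14, -0.14 without siNS library 3) and 0.94 (SE 0.13), with overlap in SKBR3. CA12, a carbonic anhydrase, had 914, 942 and 784 CPM in siFOXA1 and 356, 314 and 311 CPM in siNS libraries of T47D. In SKBR3 its groups overlapped through siNS library 3 alone, with a log2 fold change of 0.002 with and -0.111 without that library. TPD52L1 had log2 fold changes of 0.77 (SE 0.09), -0.22 (SE 0.09) and 1.03 (SE 0.10) in T47D, SKBR3 and MDA-MB-453, and the Rab GTPase RAB31 had log2 fold changes of 2.59 (SE 0.16) in T47D and 0.66 (SE 0.14) in SKBR3, while in MDA-MB-453 it did not exceed 0.617 CPM.

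Basal epithelial genes were mostly higher after silencing in each line, and the size differed. Of 27 tested genes 15 (55.6%) differed between lines, against 33.8% of all genes, and the median log2 fold change was 1.25 in T47D, 0.90 in SKBR3 and 2.43 in MDA-MB-453, with 23, 24 and 23 of 27 genes above 0. MDA-MB-453 was higher than SKBR3 for 11 of the 27 (11.9% of all genes) and lower for 0, and higher than T47D for 10 (8.48% of all genes) and lower for 3 (7.63%). KRT16, a keratin of stressed epidermis, had 57.6, 43.2 and 53.5 CPM in siFOXA1 and 0.498, 0 and 0.103 CPM in siNS libraries of MDA-MB-453. It had 11.5, 15 and 13.7 CPM in siFOXA1 and 0.670, 0.346 and 0.794 CPM in siNS libraries of T47D, and 19.3, 21.9 and 20.8 CPM in siFOXA1 and 3.44, 3.99 and 7.18 CPM in siNS libraries of SKBR3. Every line was higher after silencing without overlap, although the siNS level in MDA-MB-453 rested on few reads, and SKBR3 minus MDA-MB-453 was -5.79 (SE 0.51, edgeR adjusted p = 7.81e-08). Keratins have near-identical relatives, so reads may have been shared or dropped between them.

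SOX9, a transcription factor of progenitor cells on the same list, differed in direction. It had 48.3, 48.9 and 45.4 CPM in siFOXA1 and 65.4, 63 and 61.3 CPM in siNS libraries of T47D, 37.8, 45.7 and 42.1 CPM in siFOXA1 and 17, 18.4 and 15.8 CPM in siNS libraries of SKBR3, and 52.9, 58.2 and 61.5 CPM in siFOXA1 and 8.22, 7.78 and 10.1 CPM in siNS libraries of MDA-MB-453. Silenced cells were lower in T47D and higher in SKBR3 and MDA-MB-453, with no overlap, and T47D minus MDA-MB-453 was -3.14 (SE 0.15, edgeR adjusted p = 4.7e-11). ITGB4, the integrin of hemidesmosomes, had log2 fold changes of -0.26 (SE 0.09), -0.31 (SE 0.09) and 1.34 (SE 0.09) in T47D, SKBR3 and MDA-MB-453. MDA-MB-453 differed from the other lines for ITGB4, and these were not called different from each other (edgeR adjusted p = 0.842).

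Of 17 tested genes of the cornified envelope, the outer shell of epidermal cells, 11 (64.7%) differed between lines, against 33.8% of all genes, with a median log2 fold change of 0.23 in T47D, 0.20 in SKBR3 and 1.91 in MDA-MB-453, where 16 of 17 lay above 0. MDA-MB-453 was higher than SKBR3 for 9 of the 17 (11.9% of all genes) and higher than T47D for 6 (8.48%), and lower for 0 in both pairs, while T47D was higher than SKBR3 for 5 (13.0%) and lower for 2 (11.2%). KRT80, a keratin of differentiating epithelia, had 131, 146 and 147 CPM in siFOXA1 and 26.7, 18.4 and 26.6 CPM in siNS libraries of MDA-MB-453, against log2 fold changes of 0.23 (SE 0.10) in T47D and -0.07 (SE 0.10) in SKBR3. T47D minus MDA-MB-453 was -2.33 (SE 0.15, edgeR adjusted p = 1.29e-09). TGM1, the transglutaminase that crosslinks the envelope, had log2 fold changes of -1.07 (SE 0.20), 0.40 (SE 0.14) and 2.85 (SE 0.23) in T47D, SKBR3 and MDA-MB-453, S100A9, a calcium-binding protein, 1.97 (SE 0.21), 0.26 (SE 0.19, 0.61 without siNS library 3) and 3.02 (SE 0.26), and PPL, periplakin, 0.59 (SE 0.08), 0.20 (SE 0.08) and 1.17 (SE 0.08). Of 26 cell junction genes 16 (61.5%) differed, against 33.8% of all genes. MDA-MB-453 was higher than T47D for 13 of them (8.48% of all genes) and lower for 2 (7.63%), and higher than SKBR3 for 10 (11.9%) and lower for 1 (9.78%). PERP, a desmosomal membrane protein, had log2 fold changes of 0.16 (SE 0.09), 0.15 (SE 0.09) and 1.43 (SE 0.09), DSC2, desmocollin 2, 0.51 (SE 0.14), -0.50 (SE 0.14) and 1.69 (SE 0.14), and PVRL4, nectin 4, -0.66 (SE 0.09), 0.08 (SE 0.09) and 0.88 (SE 0.09). The SKBR3 value of DSC2 was -0.72 without SKBR3 siNS library 3, which alone accounted for the overlap of its groups.

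Of 26 tested mesenchymal genes 13 (50%) differed, against 33.8% of all genes, and the median log2 fold change was 0.79 in T47D, 0.02 in SKBR3 and -0.17 in MDA-MB-453. FN1, fibronectin, had log2 fold changes of -1.58 (SE 0.17) in T47D against -0.03 (SE 0.16, -0.23 without siNS library 3) in SKBR3 and 0.19 (SE 0.19) in MDA-MB-453, with overlap in both of these. The SKBR3 overlap came from siNS library 3 alone, at 50.1 CPM against 81.2 and 79.3 CPM in siNS libraries 1 and 2. CDH2, N-cadherin, had 73.3, 78.4 and 76.5 CPM in siFOXA1 and 8.81, 9.44 and 9.13 CPM in siNS libraries of MDA-MB-453 and overlapped in the other lines at or below 1.26 CPM. THBS1, thrombospondin 1, had log2 fold changes of 0.78 (SE 0.12), 1.45 (SE 0.13) and 0.01 (SE 0.12) in T47D, SKBR3 and MDA-MB-453, with overlap in the last.

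A response was counted as restricted to a line when its log2 fold change there was at least 1 in size without overlap of libraries, below 0.5 in size in both other lines, and the line differed from both others by the test. In T47D 70 genes (0.434%) were higher and 67 (0.415%) lower, in SKBR3 74 (0.459%) and 38 (0.235%), and in MDA-MB-453 115 (0.713%) and 62 (0.384%), 426 in all. Without SKBR3 siNS library 3, the classes still held 55 and 60, 60 and 26, and 94 and 57 of these.

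In T47D, the higher restricted genes were led by DAB2, an endocytic adaptor, with 5.46, 6.70 and 6.02 CPM in siFOXA1 and 1.15, 0.692 and 0.839 CPM in siNS libraries. Its log2 fold change of 2.75 (SE 0.28) stood against 0.14 (SE 0.20) in SKBR3 and 0.36 (SE 0.28) in MDA-MB-453, where libraries overlapped. RBBP8, which encodes the DNA end resection factor CtIP, was far more abundant, with 468, 514 and 522 CPM in siFOXA1 and 113, 103 and 105 CPM in siNS libraries of T47D, and T47D minus MDA-MB-453 was 2.26 (SE 0.14, edgeR adjusted p = 1.29e-09). In SKBR3 it was also higher without overlap, at a log2 fold change of 0.446 (SE 0.10). TNC, the matrix protein tenascin C, had log2 fold changes of 2.30 (SE 0.22) in T47D and -0.13 (SE 0.16) with overlap in MDA-MB-453, where its level was already 404 to 482 CPM in siFOXA1 and 439 to 533 CPM in siNS libraries. SYBU, a linker of vesicles to kinesin, had log2 fold changes of 2.10 (SE 0.15), -0.48 (SE 0.12) and -0.05 (SE 0.14) in T47D, SKBR3 and MDA-MB-453. Silenced SKBR3 cells had less SYBU without overlap. The SKBR3 value was -0.507 without siNS library 3, outside the bound of 0.5. Among the lower restricted genes, SIPA1, a GTPase activator of Rap1, had 20.5, 24.3 and 20.9 CPM in siFOXA1 and 100, 106 and 110 CPM in siNS libraries of T47D, with log2 fold changes of -2.27 (SE 0.12), -0.44 (SE 0.12) and -0.29 (SE 0.12) in T47D, SKBR3 and MDA-MB-453. SIPA1 was lower in silenced cells without overlap in every line. RBBP8NL, a gene named for its likeness to RBBP8, had a log2 fold change of -2.25 (SE 0.17) in T47D and overlapping libraries in both other lines, so the 2 genes moved in opposite directions in T47D. The SKBR3 overlap of RBBP8NL came from siNS library 3 alone, and its log2 fold change there was -0.02 with and 0.27 without that library. C2orf54 had a log2 fold change of -2.06 (SE 0.25) in T47D at a level of at most 2.92 CPM, and IFI6 -2.12 (SE 0.28). C2orf54 was more abundant and also lower without overlap in SKBR3 (-0.465, SE 0.12) and MDA-MB-453 (-0.193, SE 0.12), inside the bound of 0.5.

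In SKBR3, E2F7, an atypical E2F that represses cell cycle genes, had 37, 33.3 and 32.5 CPM in siFOXA1 and 6.94, 7.61 and 3.27 CPM in siNS libraries. Its log2 fold change was 2.52 (SE 0.20) in SKBR3, and 2.22 without siNS library 3, against 0.07 (SE 0.19) in T47D and 0.14 (SE 0.21) in MDA-MB-453, where libraries overlapped. ZNF503, a zinc finger corepressor, had 34.1, 40.9 and 35.2 CPM in siFOXA1 and 7.31, 7.29 and 8.58 CPM in siNS libraries of SKBR3, and overlapped in both other lines. RASSF8, a Ras association domain protein, had a log2 fold change of 2.49 (SE 0.31) in SKBR3, or 2.08 without siNS library 3, and VGF, a neuropeptide precursor, 2.10 (SE 0.24), or 2.36 without it. In T47D both were also higher without overlap, at 0.304 (SE 0.19) for RASSF8 and 0.482 (SE 0.21) for VGF. Lower genes were DNAH5, a heavy chain of axonemal dynein, with 0.764, 0.318 and 0.340 CPM in siFOXA1 and 3.49, 2.68 and 2.25 CPM in siNS libraries, and RILPL2, an effector of Rab GTPases, with 0.294, 0.408 and 0.243 CPM in siFOXA1 and 1.69, 1.57 and 1.34 CPM in siNS libraries. Silenced SKBR3 cells were the lowest of all groups for both genes. RILPL2 was higher without overlap in silenced MDA-MB-453 cells, at a log2 fold change of 0.441 (SE 0.125). APOM, an apolipoprotein, had a log2 fold change of -1.64 (SE 0.40) and FAM229B -1.67 (SE 0.43, -1.42 without siNS library 3), at no more than 1.57 CPM in SKBR3. FAM229B was called between lines at an edgeR adjusted p of 0.0313 and at 0.0857, which misses the threshold, without SKBR3 siNS library 3.

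In MDA-MB-453, BDKRB2, the bradykinin B2 receptor, had 3.18, 2.47 and 2.36 CPM in siFOXA1 and 0.249, 0.138 and 0.155 CPM in siNS libraries. Silenced MDA-MB-453 cells remained below T47D cells, which had 9.61 to 10.1 CPM in siFOXA1 and 11.9 to 12.5 CPM in siNS libraries. KIFC3, a minus-end directed kinesin, was likewise higher, with 5.35, 6.67 and 6.13 CPM in siFOXA1 and 0.706, 0.506 and 0.568 CPM in siNS libraries of MDA-MB-453 and a log2 fold change of 3.32 (SE 0.20). CDKN2B, the CDK4 and CDK6 inhibitor p15, had 24.6, 22.8 and 22.5 CPM in siFOXA1 and 4.28, 2.85 and 3.66 CPM in siNS libraries of MDA-MB-453, and in the silenced cells lay at the level of the other lines, 18 to 23.5 CPM in T47D siNS and 22.3 to 28.9 CPM in SKBR3 siNS libraries. MGLL, the lipase of monoacylglycerols, had a log2 fold change of 2.71 (SE 0.38) in MDA-MB-453, and its T47D value of 0.50 (SE 0.13) lay just inside the bound of 0.5. The MDA-MB-453 siNS libraries had 0.0415, 0.23 and 0.31 CPM of MGLL, so this size rested on few reads. MGLL was also higher without overlap in silenced T47D cells and lower without overlap in silenced SKBR3 cells (-0.422, SE 0.12). In silenced T47D cells, CDKN2B was higher (0.407, SE 0.125) and BDKRB2 lower (-0.326, SE 0.125), both without overlap. Among the lower genes, LFNG, a glycosyltransferase that modifies Notch, had 8.41, 8.36 and 8.61 CPM in siFOXA1 and 45.5, 39.8 and 44.2 CPM in siNS libraries of MDA-MB-453, and T47D minus MDA-MB-453 was 2.70 (SE 0.17, edgeR adjusted p = 1.12e-09). CYP1A1, a target of the aryl hydrocarbon receptor, had 8.33, 6.67 and 7.03 CPM in siFOXA1 and 42.2, 25.9 and 34.6 CPM in siNS libraries and overlapped in both other lines. PAQR5, a membrane progestin receptor, had a log2 fold change of -3.34 (SE 0.23) and ZNF365 -2.39 (SE 0.45), both with overlap in SKBR3. For ZNF365 this overlap came from SKBR3 siNS library 3 alone, at 1.45 CPM. Its SKBR3 log2 fold change was -0.457 (SE 0.43) with and -0.579 without that library, the latter outside the bound of 0.5. In T47D, LFNG (0.347, SE 0.12) and ZNF365 (0.218, SE 0.38) were higher in silenced cells without overlap.

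**Figure D5:**
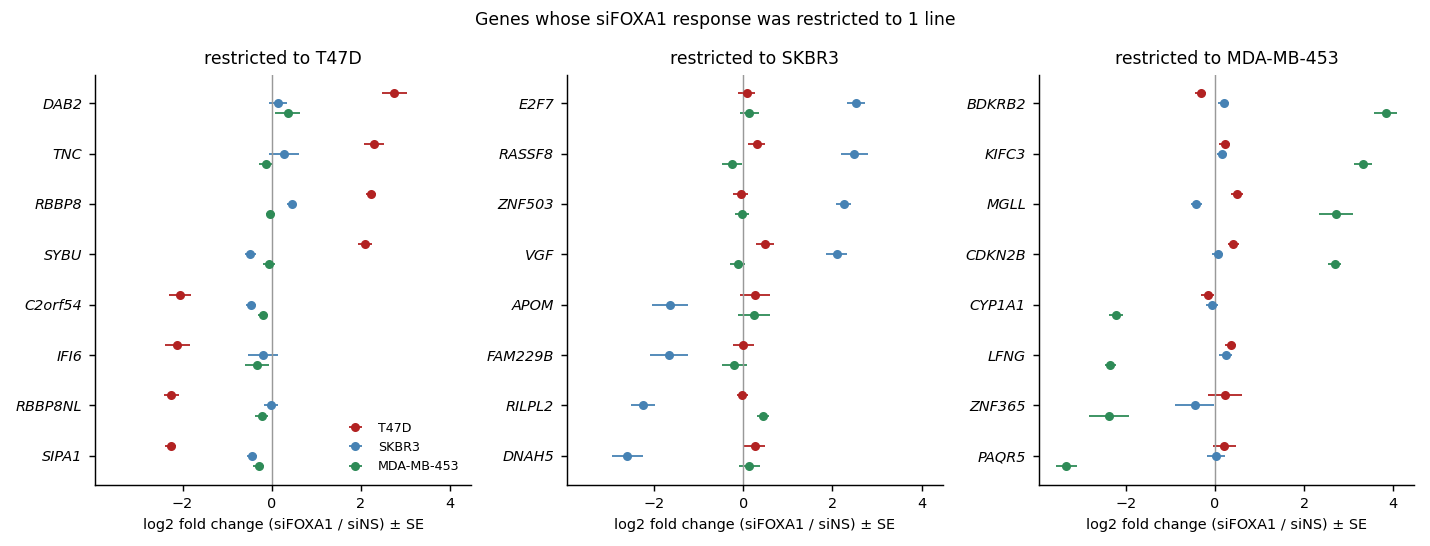
Log2 fold change (siFOXA1 over siNS) with its SE in T47D (red), SKBR3 (blue) and MDA-MB-453 (green) for the named genes whose response was restricted to T47D (left), SKBR3 (middle) or MDA-MB-453 (right). In each panel the points of that line lie beyond 1 or -1 while the points of the other lines lie between -0.5 and 0.5, as the class requires.

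A further 153 genes responded in the same direction, by at least 1 log2 unit without overlap, in 2 lines and by less than 0.5 in the remaining one. SKBR3 was the remaining line most often, with 80 genes (0.496%) higher and 22 (0.136%) lower in silenced T47D and MDA-MB-453 cells. MDA-MB-453 was it for 18 genes (0.112%) higher and 11 (0.0682%) lower, and T47D for 7 (0.0434%) higher and 15 (0.0929%) lower. Without SKBR3 siNS library 3 the classes kept 67 and 18, 10 and 10, and 6 and 13 of these.

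B3GNT3, a glycosyltransferase of mucin-type glycans, was such a gene, with 9.62, 7.54 and 8.98 CPM in siFOXA1 and 1.20, 1.68 and 1.77 CPM in siNS libraries of T47D, 6.04, 6.34 and 4.73 CPM in siFOXA1 and 1.04, 0.414 and 0.826 CPM in siNS libraries of MDA-MB-453, and 36.6, 38.7 and 37.3 CPM in siFOXA1 and 34.3, 33.5 and 40.8 CPM in siNS libraries of SKBR3. SKBR3 was high in both arms, and its groups overlapped through siNS library 3 alone, at 40.8 CPM. CD276, an immune checkpoint ligand of the B7 family, had log2 fold changes of 1.98 (SE 0.11), 0.10 (SE 0.12) and 2.31 (SE 0.29) in T47D, SKBR3 and MDA-MB-453. The last value rested on few reads, with 0.415, 0.138 and 0.206 CPM in MDA-MB-453 siNS libraries. DHRS3, a retinal reductase, had log2 fold changes of -2.0 (SE 0.19), -0.33 (SE 0.15, -0.10 without siNS library 3) and -3.09 (SE 0.33), and EFR3B -1.73 (SE 0.29), 0.24 (SE 0.21, -0.08 without siNS library 3) and -2.92 (SE 0.25). Genes that passed over T47D were PIP, described above, and NCAM2, a neural adhesion molecule, with 6.93, 5.94 and 5.19 CPM in siFOXA1 and 40.4, 34 and 26.2 CPM in siNS libraries of SKBR3, 16.6, 18.4 and 15.7 CPM in siFOXA1 and 55.9, 73.9 and 62.2 CPM in siNS libraries of MDA-MB-453, and 295, 323 and 329 CPM in siFOXA1 and 254, 258 and 235 CPM in siNS libraries of T47D. NCAM2 was lowest in silenced SKBR3 and MDA-MB-453 cells and highest in T47D. KCTD12, an auxiliary subunit of GABA-B receptors, had log2 fold changes of -0.41 (SE 0.26), 2.81 (SE 0.17) and 1.86 (SE 0.23) in T47D, SKBR3 and MDA-MB-453, and ADRA2C, an alpha-2 adrenergic receptor, -0.26 (SE 0.17), 3.68 (SE 0.45) and 1.39 (SE 0.16). SKBR3 siNS libraries had 0.265, 0.0525 and 0.107 CPM of ADRA2C, so its size there rested on few reads. Genes that passed over MDA-MB-453 were F2RL1, the protease-activated receptor PAR2, with log2 fold changes of 1.84 (SE 0.15), 1.79 (SE 0.15) and -0.07 (SE 0.18) in T47D, SKBR3 and MDA-MB-453, RNF144A, a ubiquitin ligase, with log2 fold changes of 2.33 (SE 0.24), 2.48 (SE 0.23) and 0.26 (SE 0.23), BCAS1 with log2 fold changes of -3.13 (SE 0.21), -1.83 (SE 0.17) and -0.30 (SE 0.29), and ACPP, prostatic acid phosphatase, with log2 fold changes of -2.07 (SE 0.43), -3.81 (SE 0.39) and -0.05 (SE 0.35).

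Of 31 tested sterol and fatty acid synthesis genes 23 (74.2%) differed between lines, against 33.8% of all genes, and the median log2 fold change was -0.25 in T47D, -0.58 in SKBR3 and 0.08 in MDA-MB-453, with 28 of 31 below 0 in SKBR3 and 22 of 31 above 0 in MDA-MB-453. SKBR3 was lower than MDA-MB-453 for 19 of the 31 (11.9% of all genes). LSS, lanosterol synthase, had 99.6, 99.3 and 102 CPM in siFOXA1 and 176, 189 and 206 CPM in siNS libraries of SKBR3, and 130, 130 and 136 CPM in siFOXA1 and 107, 98.6 and 115 CPM in siNS libraries of MDA-MB-453. The order of the arms was opposite in these lines, and SKBR3 minus MDA-MB-453 was -1.23 (SE 0.13, edgeR adjusted p = 6.68e-07). MSMO1, a methylsterol oxidase, had log2 fold changes of -0.04 (SE 0.10), -0.71 (SE 0.10) and 0.55 (SE 0.10) in T47D, SKBR3 and MDA-MB-453, STARD4, a sterol carrier, 0.10 (SE 0.14), -0.97 (SE 0.14) and 1.13 (SE 0.18), and ACSS2, an acetyl-CoA synthetase, 0.28 (SE 0.08), -0.84 (SE 0.08) and 0.08 (SE 0.08).

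Of 28 hypoxia and glycolysis genes 14 (50%) differed between lines, against 33.8% of all genes, and 19 without SKBR3 siNS library 3, against 44.1%. SLC2A1, the glucose transporter GLUT1, had 52.3, 52.4 and 53 CPM in siFOXA1 and 123, 113 and 115 CPM in siNS libraries of T47D, 329, 328 and 344 CPM in siFOXA1 and 528, 501 and 569 CPM in siNS libraries of SKBR3, and 154, 156 and 159 CPM in siFOXA1 and 84.7, 80.7 and 92.7 CPM in siNS libraries of MDA-MB-453. Like NDRG1 of the same list, it was lower in silenced T47D and SKBR3 cells and higher in silenced MDA-MB-453 cells, and T47D minus MDA-MB-453 was -2.01 (SE 0.11, edgeR adjusted p = 1.46e-10). PFKFB3, a regulator of glycolysis, had log2 fold changes of 1.13 (SE 0.12), -0.21 (SE 0.13) and 0.91 (SE 0.13) in T47D, SKBR3 and MDA-MB-453, and EGLN3, a prolyl hydroxylase of hypoxia-inducible factor, -0.34 (SE 0.12), -0.66 (SE 0.10) and -1.37 (SE 0.09). The list median was -0.19, -0.22 and -0.08 in T47D, SKBR3 and MDA-MB-453. Below 0 lay 17, 23 and 15 of the 28 genes, and 20 in SKBR3 without siNS library 3. The genes were thus split in T47D and MDA-MB-453, while most were slightly lower in SKBR3.

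Of 25 genes of MAPK output 17 (68.0%) differed, against 33.8% of all genes, and 4 of them were higher in silenced T47D and lower in silenced MDA-MB-453 cells, a class of 0.521% of all genes. SPRY4, an inhibitor of receptor tyrosine kinase signaling, had 3.86, 3.70 and 2.96 CPM in siFOXA1 and 1.48, 0.692 and 1.10 CPM in siNS libraries of T47D, and 35.5, 35.5 and 37.8 CPM in siFOXA1 and 77.7, 84.7 and 83.5 CPM in siNS libraries of MDA-MB-453. SPRED1, a related inhibitor, had log2 fold changes of 1.07 (SE 0.16), 0.25 (SE 0.15) and -1.08 (SE 0.14) in T47D, SKBR3 and MDA-MB-453, so both inhibitors were higher in silenced T47D and lower in silenced MDA-MB-453 cells. DUSP5, a phosphatase of ERK, had log2 fold changes of -1.41 (SE 0.10), -1.11 (SE 0.10) and -0.04 (SE 0.10), with overlap in MDA-MB-453, and the AP-1 subunit JUN 0.26 (SE 0.09), 0.10 (SE 0.09) and 1.44 (SE 0.09), with overlap in SKBR3. Of 26 Wnt, Notch and Hippo target genes 16 (61.5%) differed, against the same 33.8%. NRARP, a feedback inhibitor of Notch, had 27.8, 26.6 and 26.7 CPM in siFOXA1 and 70.4, 73.7 and 73.6 CPM in siNS libraries of MDA-MB-453, with log2 fold changes of -0.71 (SE 0.10), 0.58 (SE 0.15) and -1.42 (SE 0.11) in T47D, SKBR3 and MDA-MB-453. NKD1, a feedback inhibitor of Wnt, had log2 fold changes of -2.13 (SE 0.43), 0.46 (SE 0.17, 0.25 without siNS library 3) and -1.40 (SE 0.16), JAG2, a Notch ligand, 0.52 (SE 0.08), 0.43 (SE 0.11) and -0.28 (SE 0.08), and AMOTL2, a Hippo pathway scaffold, 0.11 (SE 0.10), -0.04 (SE 0.10) and 0.91 (SE 0.10). NRARP differed in every pair of lines, and MDA-MB-453 differed from both others for JAG2 and AMOTL2 (edgeR).

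Of 26 p53 targets and CDK inhibitors 13 (50%) differed between lines, against 33.8% of all genes, with median log2 fold changes of 0.43, 0.03 and 0.21 in T47D, SKBR3 and MDA-MB-453. GDF15, a stress-induced cytokine, had 5.06, 4.15 and 4.28 CPM in siFOXA1 and 80.7, 38.8 and 67.5 CPM in siNS libraries of MDA-MB-453 and was lower in silenced cells of every line, at -0.46 (SE 0.19), -1.53 (SE 0.25) and -3.78 (SE 0.22) in T47D, SKBR3 and MDA-MB-453. CDKN2C, the inhibitor p18, had log2 fold changes of -1.73 (SE 0.12), -0.03 (SE 0.12, 0.12 without siNS library 3) and -0.70 (SE 0.12) in T47D, SKBR3 and MDA-MB-453, and GADD45B, a stress sensor, 0.09 (SE 0.12), 0.21 (SE 0.13) and 1.60 (SE 0.13). Of 28 genes of the unfolded protein and amino acid responses 15 (53.6%) differed, against 33.8% of all genes, and 24 without SKBR3 siNS library 3, against 44.1%. CREB3L1, a membrane-bound factor of the secretory pathway, had 4.37, 3.53 and 4.84 CPM in siFOXA1 and 83.8, 86.9 and 83.7 CPM in siNS libraries of MDA-MB-453, 2.35, 3.13 and 3.11 CPM in siFOXA1 and 21.6, 24.1 and 23.3 CPM in siNS libraries of SKBR3, and 1.30, 1.15 and 1.53 CPM in siFOXA1 and 4.40, 4.89 and 3.22 CPM in siNS libraries of T47D. It was lower in every silenced line, by different amounts (edgeR adjusted p = 1.94e-07). DDIT4, an inhibitor of mTORC1, was higher in each, at 0.77 (SE 0.17), 1.61 (SE 0.16) and 2.08 (SE 0.16) in T47D, SKBR3 and MDA-MB-453, while the amino acid transporter SLC7A5 had log2 fold changes of -0.59 (SE 0.08), -0.01 (SE 0.08, 0.03 without siNS library 3) and -0.21 (SE 0.08) and HERPUD1, a factor of protein degradation in the endoplasmic reticulum, 0.46 (SE 0.09), -0.14 (SE 0.09) and -0.09 (SE 0.09).

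Of 16 NF-kB and cytokine genes 7 (43.8%) differed between lines, against 33.8% of all genes. NFKBIZ, an atypical NF-kB inhibitor, had log2 fold changes of -0.70 (SE 0.18), 0.88 (SE 0.19, 0.68 without siNS library 3) and -0.18 (SE 0.16) in T47D, SKBR3 and MDA-MB-453, and TNFAIP2 had log2 fold changes of 0.77 (SE 0.11) in T47D and 1.70 (SE 0.12) in SKBR3, while it did not exceed 0.286 CPM in MDA-MB-453. NFKB1 had log2 fold changes of -0.12 (SE 0.09), 0.34 (SE 0.09) and -0.15 (SE 0.09), and the cytokine IL32 2.43 (SE 0.54) in T47D and -1.19 (SE 0.70, -0.78 without siNS library 3) with overlap in SKBR3.

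Cytosolic ribosomal protein genes gave a difference that rests in part on a library. Of 74 tested genes 56 (75.7%) differed between lines, against 33.8% of all genes, and the median log2 fold change was 0.29 in T47D, -0.41 in SKBR3 and 0.29 in MDA-MB-453, with 72 of 74 below 0 in SKBR3. Without SKBR3 siNS library 3 the SKBR3 median was -0.12, with 64 of 74 below 0, and 56 genes were again called, against 44.1% of all genes. RPS18 had 1610, 1560 and 1630 CPM in siFOXA1 and 1680, 1750 and 3030 CPM in siNS libraries of SKBR3, and its SKBR3 log2 fold change was -0.43 with and -0.11 without library 3. It had 951, 914 and 1100 CPM in siFOXA1 and 681, 641 and 572 CPM in siNS libraries of T47D, and 686, 688 and 649 CPM in siFOXA1 and 392, 433 and 477 CPM in siNS libraries of MDA-MB-453. T47D and MDA-MB-453 were higher after silencing without overlap. RPS12 had log2 fold changes of 0.77 (SE 0.13), -0.25 (SE 0.13, -0.01 without siNS library 3) and 0.55 (SE 0.13) in T47D, SKBR3 and MDA-MB-453, RPL39 0.53 (SE 0.17), -0.56 (SE 0.17, -0.22 without siNS library 3) and 0.52 (SE 0.17), and RPL22 0.19 (SE 0.12), -0.40 (SE 0.12, -0.19 without siNS library 3) and 0.54 (SE 0.12). Ribosomal protein genes have many processed pseudogenes, which can take or drop their reads in counting.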

How the data were processed

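RNA of 6 groups of 3 libraries was sequenced, and the authors deposited whole-number read counts per gene in 1 table per comparison. The submitters' processing notes name STAR 2.5, HTSeq 0.6.1, DESeq2 and hg19 without giving their roles. The 3 siFOXA1 tables were joined on the gene identifier, and the siNS counts of a line did not differ between its tables. A gene absent from the siFOXA1 table of a line has no siFOXA1 count there, so genes listed in fewer tables did not enter the main fit. They may include genes without any siFOXA1 read in a line, which was not tested. Column numbers 2, 3 and 4 (T47D siNS) and 1, 2 and 4 (MDA-MB-453 siNS) could be tied to a group but not to a labelled replicate, and 81 other per-sample columns were not used. Counts summed to 17419361 to 23920836 per library.

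The 18 libraries were fitted together in edgeR 4.0.16 (limma 3.58.1, R 4.3.3) with TMM scaling, edgeR's filter on low counts and 1 mean per group. The line-by-siRNA terms were tested with the quasi-likelihood F test, for any line and for each pair of lines, and p-values were adjusted over all tested genes by Benjamini-Hochberg. The SE is the absolute log2 fold change divided by the square root of F. CPM values use TMM library sizes. A gene is called at an adjusted p under 0.05, and the class rules are given with the classes. Named genes are protein-coding class members with a group mean of at least 1 CPM in the higher arm of every line. They are the 3 with the largest smaller change per pair and direction (opposite), the 4 with the largest change per line and direction (restricted), 2 per missing line and direction (2 lines), up to 4 called members of lowest p per list, and all tested lineage factors. Some genes that the rule names are not reported here. TOP2A falls outside this rule and was added for its promoter after its values were seen. The members and all gene lists were chosen with earlier results of these data known. Alternatives were DESeq2 1.42.0, RLE scaling, no filter, all genes of any table, limma voom with sample weights, a replicate block, other class fold sizes, each library left out and, added after seeing the data, fits of the 12 libraries of a pair. The fits were tested on simulated data. Tables and figures used Python 3.11.15, numpy 2.4.6, pandas 2.3.3 and matplotlib 3.10.9. Counting intervals and floors cover counting error only.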

Additional observations from a re-analysis of the deposited data

Results flagged for a closer look

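The siFOXA1 effect differed between cell lines by the interaction test itself (edgeR quasi-likelihood F test, adjusted p under 0.05) for 5448 genes over any line, 3900 genes between T47D and SKBR3, 2600 between T47D and MDA-MB-453, and 3498 between SKBR3 and MDA-MB-453. The last 13 values below are for genes of opposite response, which were chosen for that difference, so it is a description.

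The log2 difference of T47D minus SKBR3 was 4.05 for TUBB2A, 3.76 for C3, -2.74 for E2F2 and -2.59 for COL9A3. The log2 difference of T47D minus MDA-MB-453 was 4.01 for DLL4, 3.81 for KIAA1324, -5.92 for PKP1, -4.09 for GRIK4 and -3.14 for EMP1. For IGFBP3 it was 7.23, a value fitted to 3 reads in T47D siNS libraries and therefore no measure of size. The log2 difference of SKBR3 minus MDA-MB-453 was 2.99 for CCDC88B, -3.42 for NDRG1 and -3.82 for KLHDC7A, the last with few reads in MDA-MB-453 siNS libraries. GRIK4 and EMP1 were also below 1 CPM in those siNS libraries.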

How the results depend on the processing

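Of the 134 named genes 129 were called between lines, and 119 of these were called under every alternative run. All named genes but the lineage factors were chosen as called, most for large changes or low p. These counts therefore describe the chosen genes and do not measure how stable calls are in general. The count over any line (5448) was 6347 by DESeq2, 5462 with RLE scaling, 5256 without a filter and 5598 with genes of any table. Sample quality weights in limma voom gave 8298 over any line, 5874 for T47D minus SKBR3 (3900) and 4731 for T47D minus MDA-MB-453 (2600). T47D minus MDA-MB-453 was also 4140 when only the 12 libraries of these lines were fitted and 4416 without SKBR3 siNS library 3. Fold sizes of 0.8 and 0.3 in the class rules gave 262 opposite genes (637) and 111 restricted to MDA-MB-453 (177). The cause of these shifts was not tested.

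Leaving out 1 library at a time gave 4733 to 7287 genes over any line, 3231 to 4929 for T47D minus SKBR3, 2114 to 4416 for T47D minus MDA-MB-453 and 2886 to 4783 for SKBR3 minus MDA-MB-453 (3498). The classes then held 634 to 747 opposite genes, 115 to 150 restricted to T47D (137), 100 to 137 to SKBR3 (112) and 159 to 180 to MDA-MB-453, and 136 to 171 genes that passed over a line (153). FAM229B lost its call with voom weights and without any of 5 libraries, and TLE2 without either of 2. Uncalled values changed direction for ESR1 without MDA-MB-453 siFOXA1 1 (adjusted p = 0.782, and 0.28 to 0.796 without any other library), ESR2 without MDA-MB-453 siNS 1 (0.749, and 0.36 to 0.812) and ERBB4 without SKBR3 siNS 1 (0.977) or siNS 2 (0.979, and 0.122 to 0.981), all edgeR. Calls between SKBR3 and MDA-MB-453 were gained without SKBR3 siNS library 3 by B2M (edgeR adjusted p = 0.00496), CA12 (0.0393), DLL4 (0.0308), LGALS3BP (0.028), NCAM2 (0.00148), RBBP8NL (0.00788), SPDEF (0.0223), TLE1 (0.0152) and TLE2 (0.00236) and lost by FAM229B (0.104). Between T47D and SKBR3 calls were then gained by AES (0.000292), DUSP5 (0.0222) and EGFR (7.71e-05) and lost by OAS3 (0.0787) and PSMB9 (0.0559). Between T47D and MDA-MB-453 none of the named genes lost its call, and FOXA1, AES, AURKA, C3, CCDC88B, CCNA2, CDC6, CDK1, CRAT, DHRS3, ERBB2, GRHL1, RILPL2, RPL22, RRM2, TAP1, TFAP2A, TFAP2C and TPD52L1 gained it, at adjusted p of 8.02e-05 (CRAT) to 0.0473 (TPD52L1).

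Same-numbered siFOXA1 and siNS libraries did not deviate together in every pair, with correlations of -0.0557 and -0.0414 in T47D, 0.166, -0.0829 and 0.0174 in SKBR3 and 0.0514 and 0.187 in MDA-MB-453. The values 0.166 and 0.187 were the highest of any siFOXA1 and siNS pair in their lines. In T47D the highest was 0.223, for siFOXA1 library 2 and siNS library 3. The siNS numbers of T47D and MDA-MB-453 are not tied to labelled replicates, so these correlations cannot decide whether libraries were paired. A replicate block leaves 4 residual degrees of freedom in place of 12. With it 2811 genes were called over any line, 2023 for T47D minus SKBR3, 944 for T47D minus MDA-MB-453 and 1923 for SKBR3 minus MDA-MB-453, with 73 genes restricted to T47D, 112 to MDA-MB-453 and 98 that passed over a line. Under the block the calls of TLE2, APOM, HERPUD1, IL32, NFKB1, PSMB9, SLC7A5, SPDEF and ZNF365 were lost. Depth limits genes near 1 CPM, where a library holds few reads.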

Other observations

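Of the genes that are not in all 3 joined tables, 1643 passed the filter when a missing siFOXA1 count was taken as 0 and a missing siNS count was read from the TLE3 table of the line where it had one. Of these, 209 were called between lines and 71 fell into a class of opposite, restricted or shared response. The same fit called 5598 of 17781 genes, so genes outside the join were called less often than the rest. Over the joined tables, 1216 of the 16138 tested genes fell into any class, and 174 of the 637 opposite genes were in more than 1 opposite class.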
